A study of Mus musculus with 4 samples.

Results

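The 9 genes described here encode parts and cofactors of the protein complex that the leukemia fusion MLL-AF9 assembles on chromatin. They were chosen by name, and all 9 are among the 13614 genes of the deposited count table. The cells came from fetal livers of mice at embryonic day 14.5 to 16.5. They were transduced with the retroviral vector MSCV-MLL-AF9-IRES-GFP and sorted for GFP, and the study calls the sorted cells leukemia-initiating cells. All 4 libraries carry this vector. The wild type group (Prl2+/+) and the Prl2 knockout group (Prl2-/-) have 2 RNA-seq libraries each, and the phosphatase PRL2 is the product of the gene listed as Ptp4a2. No source used here tells whether a genotype's libraries are from different embryos or cultures. The p-values therefore cover the spread between these libraries alone, which may be technical. Which part of Ptp4a2 is deleted is not given in these sources.

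MLL, the product of Kmt2a, is a histone H3 lysine 4 methyltransferase that holds Hox genes active in blood stem cells. In MLL-AF9 its N-terminal part is joined to the C-terminal part of AF9, the product of Mllt3. The N-terminal part keeps the contact with menin (Men1), which in turn is bound by LEDGF (Psip1), a reader of methylated histone H3 lysine 36. The AF9 part recruits the scaffold proteins AFF1 and AFF4 of the super elongation complex, which releases paused RNA polymerase II, and DOT1L, the histone H3 lysine 79 methyltransferase. ENL (Mllt1) is the close relative of AF9, and AF10 (Mllt10) is a cofactor of DOT1L.

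The coding ends of Mllt3 and Mllt1 are shown because they encode the domain through which AF9 and ENL bind AFF1, AFF4 and DOT1L, and which the fusion retains. Both stretches are 210 bases from GENCODE M21 transcripts of the genes, aligned without gaps, and capitals mark the bases that are the same in both. The Mllt3 stretch ends 12 bases before the stop codon and lies on the minus strand of chr4:87774030-87783669 in mm10, in 3 exons. The Mllt1 stretch ends 9 bases before the stop codon and lies on the minus strand of chr17:56894474-56894851, also in 3 exons. The start of the Kmt2a coding sequence encodes the N-terminal tip of MLL, which holds the menin contact. It is given as its first 60 bases in GENCODE M21, in 1 exon on the minus strand of chr9:44881215-44881274, with the start codon in capitals.
Mllt3: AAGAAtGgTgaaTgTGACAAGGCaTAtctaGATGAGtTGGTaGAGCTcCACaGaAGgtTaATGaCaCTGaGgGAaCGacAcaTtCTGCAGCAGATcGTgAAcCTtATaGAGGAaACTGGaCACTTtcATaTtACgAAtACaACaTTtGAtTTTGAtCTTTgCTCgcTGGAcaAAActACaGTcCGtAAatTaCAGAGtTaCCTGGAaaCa
Mllt1: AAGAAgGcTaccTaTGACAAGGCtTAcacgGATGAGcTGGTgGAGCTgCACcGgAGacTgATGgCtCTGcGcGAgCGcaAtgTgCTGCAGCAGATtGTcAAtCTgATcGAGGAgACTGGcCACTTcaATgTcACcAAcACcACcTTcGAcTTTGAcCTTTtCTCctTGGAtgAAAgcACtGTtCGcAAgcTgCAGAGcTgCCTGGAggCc
Kmt2a: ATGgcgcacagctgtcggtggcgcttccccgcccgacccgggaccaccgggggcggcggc

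In these stretches 145 of 210 bases, or 69.0%, were the same in Mllt3 and Mllt1, against 61.8% of 1626 aligned bases over the whole coding sequences. The distances from the stop codons were chosen to give the most identical bases, so the 69.0% is the highest of those tried. The 61.8% leaves out 96 gap columns.

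Library totals were 14625725 and 14921313 counts in the wild type and 15422309 and 15267768 in the knockout. Ptp4a2 had 4884 and 5105 counts in the wild type and 89 and 104 in the knockout, so each library matched its label. Its log2 fold change was -5.72, and across the whole table it was the 1 gene with an adjusted p of 0.05 or less in edgeR's quasi-likelihood test. With knockout replicate 1 or 2 left out the log2 fold change was -5.61 or -5.85, as large as before, while the adjusted p was 0.111 or 0.0856. All 7 markers of myeloid leukemia cells were listed, with summed levels between 1776 and 1965 CPM (counts scaled to the library total and its TMM factor). None of the 5 hepatocyte and none of the 6 T cell markers were listed. Of 10 erythroid markers 5 were listed, with sums of 27.3 and 14.8 CPM in the wild type and 4.84 and 8.78 CPM in the knockout.

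Of the 9 genes, 8 had a log2 fold change above 0, meaning higher in the knockout, as 49.1% of all genes did. The share above 0 was larger among long genes, as given below with gene length. Mllt3 was the 1 below 0, as 50.9% of all genes were. None passed the test: 0 of 9 were called by edgeR's quasi-likelihood test, which called 0.00735% of all genes. At an unadjusted p under 0.05, Aff1 and Dot1l were higher in the knockout, 2 of 9, where 5.66% of all genes were, and 0 of 9 were lower, where 4.23% were. DESeq2 called Aff1 alone among the 9, and it called 0.676% of all genes. The likelihood ratio test of edgeR and limma-voom called 0 of the 9, with 0.477% of all genes called by the former (0.184% higher and 0.294% lower) and 0.00735% by the latter. The authors' deposited table lists none of the 9 at an adjusted p of 0.05 or less, against 0.477% of all genes. In 5 of the 9 genes both knockout libraries lay above both wild type libraries, as they did in 22.2% of all genes, and in 0 of 9 both lay below, against 21.9%. The median log2 fold change was 0.17 over the 9 genes and -0.01 over all genes tested. The median of the 9 was 0.34 with wild type replicate 1 left out and 0.10 with wild type replicate 2 left out.

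**Figure D1:**
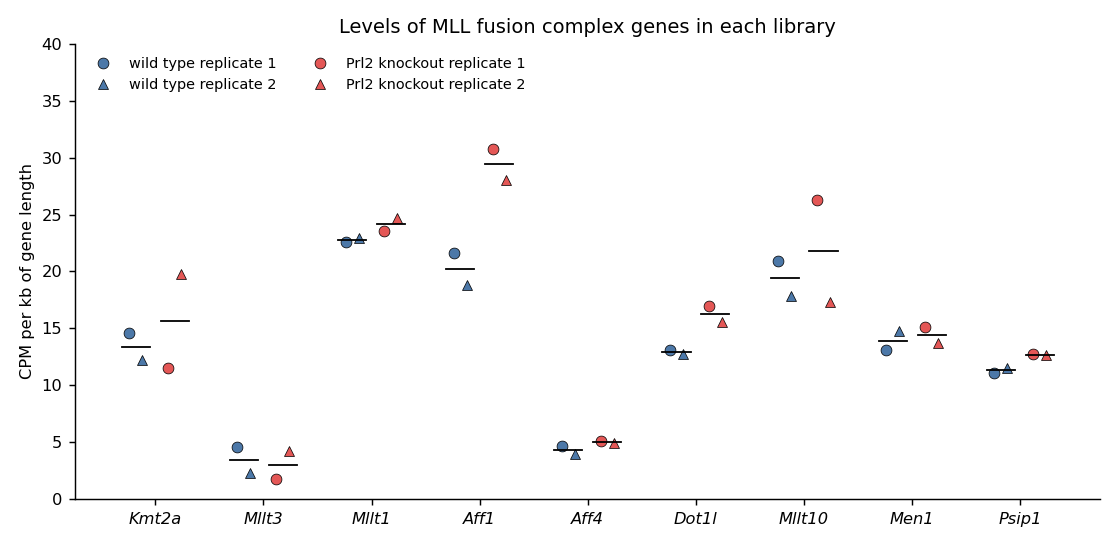
Level of each of the 9 genes in each library, in CPM per kb of deposited gene length, with blue for wild type, red for Prl2 knockout, circles for replicate 1, triangles for replicate 2 and a line at each group's mean. Aff1, Dot1l, Aff4, Psip1 and Mllt1 are higher in both knockout libraries, as 22.2% of all genes are. The knockout libraries of Kmt2a and Mllt10 lie far apart. Those of Mllt3, at 1.72 and 4.22, differ widely as a ratio but lie close together on this axis.

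Levels between genes were compared as CPM per kb of the deposited gene length. Over the 4 libraries Aff1 had the highest mean level at 24.8, followed by Mllt1 at 23.5 and Mllt10 at 20.6. The ranges of these 3 genes over the libraries overlapped. Dot1l at 14.6, Kmt2a at 14.5, Men1 at 14.2 and Psip1 at 11.99 came next. Kmt2a was the widest of them, and its range overlapped those of the other 3 and of Aff1 and Mllt10. Dot1l and Men1 overlapped each other, while the highest Psip1 library lay below the lowest of both. Aff4 at 4.66 and Mllt3 at 3.19 were lowest, and their ranges overlapped each other and no other gene's. Aff1 was in the 81.5th percentile of all genes by this level and Mllt3 in the 34.8th. Without division by length the order changed, with Kmt2a, the longest gene at 16670 bp, in the first place.

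Kmt2a, which encodes MLL itself (chromosome 9 from 44803355 to 44881296, mm10), had 3628 and 3024 counts in the wild type and 2928 and 4988 in the knockout. The knockout libraries therefore stood on either side of both wild type libraries. Levels averaged 223 ± 27.6 CPM in wild type and 260.5 ± 97.5 CPM in knockout libraries (SD, n = 2 each). This gave a log2 fold change of 0.22 (SE 0.288, 95% interval -0.54 to 0.99, edgeR quasi-likelihood adjusted p = 0.825). The knockout libraries differed by 1.72 times, a larger gap than in 97.2% of the 9397 genes whose log2 CPM averaged at least 3. Its log2 fold change was -0.22 with Prl2 knockout replicate 2 left out and 0.56 with Prl2 knockout replicate 1 left out. Reads of the vector's MLL part and of the endogenous gene cannot be told apart in counts per gene. The species and breakpoint of the vector's fusion cDNA are not given in these sources, so the vector's share of the Kmt2a and Mllt3 counts is unknown, and these counts may not be levels of the endogenous genes. An antisense gene, AC061963.1, shares 378 bp of exon with Kmt2a and was not analysed here.

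The other KMT2 methyltransferases did not show this order of libraries. Kmt2d, which works mainly at enhancers, had 3334 and 3409 wild type counts and 4089 and 3284 knockout counts. Kmt2b and Kmt2c, chosen after their values were seen, also differ from it: the knockout libraries had 2305 and 2270 counts of Kmt2b, and 1709 and 1342 counts of Kmt2c. In none of these 3 genes was Prl2 knockout replicate 2 the higher one.

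Mllt3, which encodes AF9 and is known for its part in blood stem cell maintenance (chromosome 4 from 87769925 to 88033364), was the most variable of the 9. It had 821 and 402 counts in the wild type and 316 and 767 in the knockout. Each genotype thus had a high and a low library, wild type replicate 1 and Prl2 knockout replicate 2 being the high ones. Its mean was 41.0 ± 19.7 CPM in wild type and 35.7 ± 21.2 CPM in knockout libraries (SD, n = 2 each). On the log2 scale the difference was -0.20 with an interval of -1.97 to 1.57 (SE 0.611, edgeR quasi-likelihood adjusted p = 0.934). The libraries differed by 2.03 times within the wild type and by 2.45 times within the knockout. These gaps exceeded those of 97.2% and 99.2% of the 9397 genes. The sign depended on the library: the log2 fold change was 0.39 and -0.63 with wild type replicate 1 and 2 left out, and 0.31 and -0.99 with Prl2 knockout replicate 1 and 2 left out. Reads of the vector's AF9 part cannot be told apart from the endogenous gene here either.

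**Figure D2:**
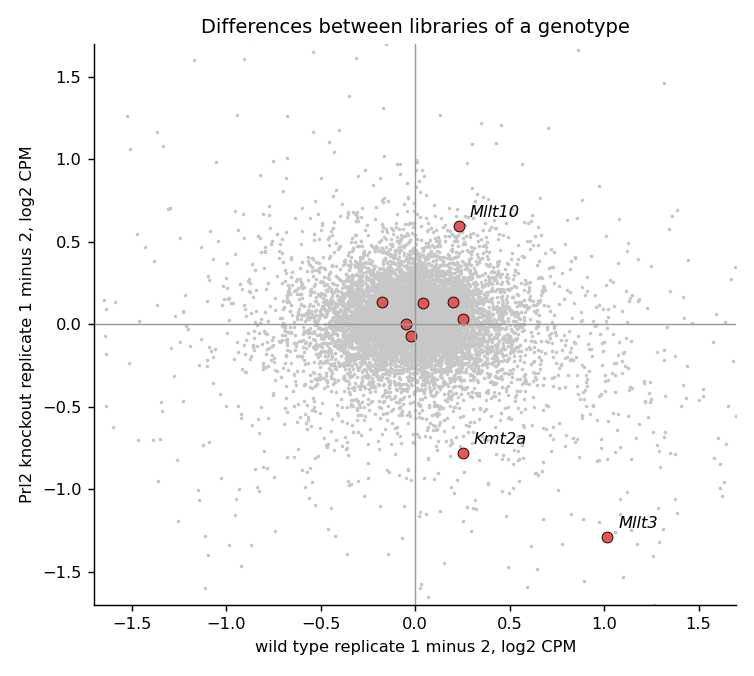
Difference in log2 CPM between replicate 1 and replicate 2 of the wild type (horizontal) and of the Prl2 knockout (vertical), with grey points for genes averaging a log2 CPM of at least 3 inside the axis limits and red points for the 9 genes. Mllt3 lies at 1.02 and -1.29, Kmt2a at 0.25 and -0.78 and Mllt10 at 0.23 and 0.60, and the other 6 lie near the centre.

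Kmt2a and Mllt3 had the same order in both pairs of libraries, wild type replicate 1 above 2 and Prl2 knockout replicate 2 above 1. Of the 9397 genes, 22.5% had this order, and 1.47% had it by 0.5 or more on the log2 scale in both pairs, as Mllt3 did. The ratio of Kmt2a to Mllt3 per length was 3.18 and 5.42 in the wild type and 6.67 and 4.68 in the knockout, so they did not move in proportion. Likeness to each gene was measured as the Euclidean distance between log2 CPM values centred on the gene's mean, over 4 libraries and 9034 other protein-coding genes. Nearest to Kmt2a were Tesk1, Siah2 and Siglecg, at distances of 0.059, 0.102 and 0.131. Nearest to Mllt3 were Dpp4, Atp13a2 and Mcur1, at 0.065, 0.104 and 0.244. Dpp4 had 436 and 207 counts in the wild type and 173 and 413 in the knockout. These distances rest on 4 libraries and are a description.

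Sums of some cell type marker lists differed between the libraries that were high and low in Mllt3, in both directions. Megakaryocyte markers, of which 3 of 5 were listed and none was at 0, summed to 58.1 and 24.7 CPM in the wild type and 17.1 and 26.0 CPM in the knockout. Of 4 mast cell and basophil markers, 3 were listed and none was at 0. They summed to 86.5 and 29.6 CPM in the wild type and 25.8 and 54.2 CPM in the knockout. Both sums were highest in wild type replicate 1 and lowest in Prl2 knockout replicate 1, but 1 gene made up most of each in wild type replicate 1, Itga2b at 43.1 CPM and Cpa3 at 78.6 CPM. Gp9, Mcpt8 and Ms4a2 of these lists were instead higher in wild type replicate 2, and Mcpt8 was lowest in Prl2 knockout replicate 2, at 2.91 CPM. Of 4 endothelial markers 1 was listed, Pecam1, which alone does not show that endothelial cells were present. It was at 393 and 202 CPM in wild type libraries and 207 and 309 CPM in knockout libraries. Macrophage markers, of which 3 of 6 were listed, summed to 502 and 445 CPM in the wild type and 503 and 724 CPM in the knockout. Csf1r of that list ran the other way in both genotypes. The erythroid sums given above also had the order of Mllt3 in both genotypes, but Hbb-bs did not in the knockout. Sums of the B cell and myeloid leukemia cell lists had it in 1 genotype only. Neutrophil markers, all 7 listed and far more abundant, ran the other way from Mllt3, with sums of 12339 and 20056 CPM in wild type libraries and 13163 and 11678 CPM in knockout libraries. Among them Elane was at 943 and 2717 CPM in wild type libraries and 1467 and 612 CPM in knockout libraries, while Camp and, in the knockout, Ltf, S100a8 and S100a9 did not share that order. The part of these markers in the Mllt3 values was not tested. In bulk samples, fewer cells of a type and less RNA per cell cannot be told apart.

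Mllt1, which encodes ENL (chromosome 17 from 56892611 to 56935415), was steady where its relative Mllt3 was not. It had 1322 and 1333 counts in the wild type and 1413 and 1467 in the knockout. On average it was at 89.1 ± 0.962 CPM in wild type and 94.7 ± 3.14 CPM in knockout libraries (SD, n = 2 each). Both knockout libraries were higher, but the log2 fold change of 0.09 had an interval from -0.16 to 0.34 (SE 0.100, edgeR quasi-likelihood adjusted p = 0.793). Per length, the level of Mllt1 was 4.93 and 10.2 times that of Mllt3 in the wild type and 13.7 and 5.86 times in the knockout. The ratio was set by Mllt3, since Mllt1 varied by at most 1.05 times within a genotype.

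Aff1, which encodes a scaffold of the super elongation complex and is itself a frequent fusion partner of MLL (chromosome 5 from 103692374 to 103855322), had the largest fold change of the 9. It had 3059 and 2642 counts in the wild type and 4450 and 4016 in the knockout, and the groups did not overlap. Mean levels were 191 ± 18.8 CPM in wild type and 278 ± 18.3 CPM in knockout libraries (SD, n = 2 each), 1.45 times higher. The log2 fold change was 0.54 (SE 0.120, 95% interval 0.24 to 0.84), with an unadjusted p of 0.00457 and an adjusted p of 0.474 in edgeR's quasi-likelihood test, so it did not pass the test over all genes. DESeq2 gave an adjusted p of 0.0462 and the authors' deposited table an adjusted p of 0.218, and over all settings the adjusted p ran from 0.0462 to 0.884. Leaving out each library in turn gave log2 fold changes between 0.44 and 0.63.

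Aff4, which encodes the other AFF scaffold of the complex (chromosome 11 from 53350833 to 53421830), had 940 and 782 counts in the wild type and 1045 and 1010 in the knockout. The groups did not overlap, but wild type replicate 1 came close to the knockout. Aff4 averaged 57.8 ± 7.21 CPM in wild type and 67.5 ± 1.18 CPM in knockout libraries (SD, n = 2 each). This gave a log2 fold change of 0.23 (SE 0.131, 95% interval -0.10 to 0.55, edgeR quasi-likelihood adjusted p = 0.591). It was 0.10 without wild type replicate 2 and 0.35 without wild type replicate 1. Per length, Aff1 was 4.63 and 4.80 times as abundant as Aff4 in the wild type and 6.06 and 5.65 times in the knockout. Aff1 was thus the more abundant scaffold transcript in every library.

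Dot1l, which encodes the only known histone H3 lysine 79 methyltransferase and is a drug target in MLL-rearranged leukemia (chromosome 10 from 80755206 to 80795461), had 1707 and 1647 counts in the wild type and 2261 and 2045 in the knockout. The groups did not overlap. Its libraries averaged 113 ± 2.29 CPM in wild type and 141 ± 9.10 CPM in knockout libraries (SD, n = 2 each), 1.26 times higher. On the log2 scale the difference was 0.33 (SE 0.103, 95% interval 0.08 to 0.59), with an unadjusted p of 0.0198 and an adjusted p of 0.474 in edgeR's quasi-likelihood test. DESeq2 gave an adjusted p of 0.432. The log2 fold change stayed between 0.26 and 0.39 when each library was left out in turn.

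Mllt10, which encodes the DOT1L cofactor AF10 (chromosome 2 from 18055237 to 18212388), did not follow Dot1l in the knockout. It had 1850 and 1566 counts in the wild type and 2370 and 1551 in the knockout, so Prl2 knockout replicate 1 was the highest library and Prl2 knockout replicate 2 the lowest. For Mllt10 the means were 115 ± 12.9 CPM in wild type and 129 ± 37.2 CPM in knockout libraries (SD, n = 2 each). The log2 fold change was 0.17 (SE 0.220, 95% interval -0.39 to 0.73, edgeR quasi-likelihood adjusted p = 0.825). It was -0.16 without Prl2 knockout replicate 1 and 0.44 without Prl2 knockout replicate 2. Mllt10 shares 749 bp of exon with Dnajc1 on the other strand, and the strand setting of the counting is not given in the sources used here. Dnajc1 itself had 979 and 940 counts in the knockout libraries.

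**Figure D3:**
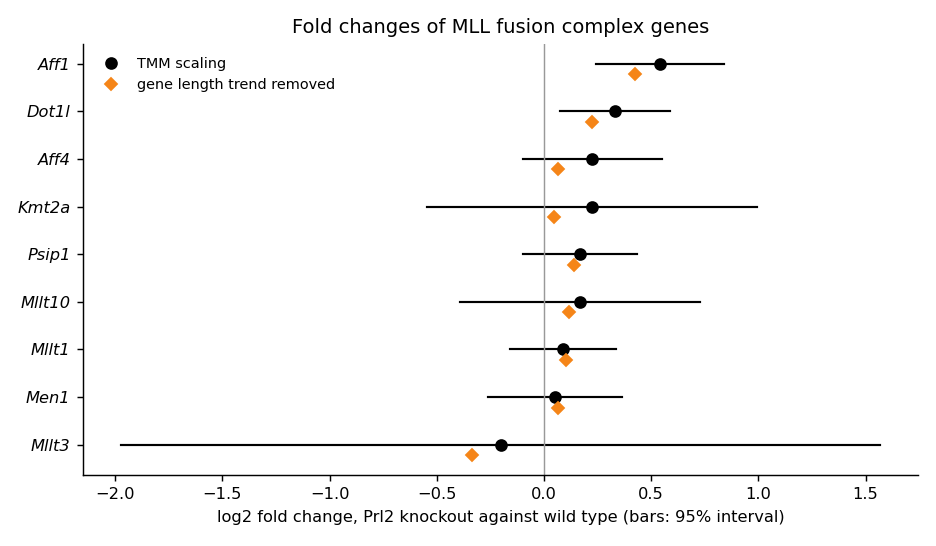
Log2 fold change of each of the 9 genes, Prl2 knockout against wild type, with 95% intervals as bars (black, TMM scaling) and the value with the library trends on gene length removed (orange). The intervals of Aff1 and Dot1l lie above 0 before adjustment over all genes, and that of Mllt3 runs from -1.97 to 1.57.

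Men1, which encodes menin, the adaptor that ties MLL and its fusions to chromatin (chromosome 19 from 6334979 to 6340891), had 749 and 839 counts in the wild type and 884 and 797 in the knockout. The groups overlapped. Means were 53.3 ± 4.53 CPM in wild type and 55.2 ± 3.68 CPM in knockout libraries (SD, n = 2 each). This gave a log2 fold change of 0.05 with an interval of -0.26 to 0.37 (SE 0.127, edgeR quasi-likelihood adjusted p = 0.913). It ran from -0.04 to 0.14 when each library was left out in turn, and was negative when either the wild type or the knockout replicate 1 was the one left out.

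Psip1, which encodes LEDGF (chromosome 4 from 83455680 to 83486459), had 843 and 867 counts in the wild type and 987 and 975 in the knockout. The libraries of each genotype lay close together and the groups did not overlap. Averages were 57.4 ± 1.42 CPM in wild type and 64.5 ± 0.128 CPM in knockout libraries (SD, n = 2 each), 1.12 times higher. On the log2 scale the difference was 0.17 (SE 0.108, 95% interval -0.10 to 0.43, edgeR quasi-likelihood adjusted p = 0.625). Psip1 shares 483 bp of exon with Snapc3 on the other strand, which had 209 and 198 counts in the wild type and 195 and 237 in the knockout.

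Gene length moved with the fold change across the table. In the protein-coding genes at or above a mean log2 CPM of 3, the median log2 fold change was -0.06 in 3611 genes under 4000 bp, 0.05 in 3683 genes from 4000 to under 8000 bp and 0.14 in 1741 genes of 8000 bp or more. From the shortest to the longest class, 38.08%, 57.97% and 74.96% of genes had a log2 fold change above 0. In the longest class 45.2% of genes had both knockout libraries above both wild type libraries, against 14.6% in the shortest. Of the 9 genes, Kmt2a, Aff4, Mllt3, Aff1 and Dot1l fall in the longest class, at 16670, 13450, 12004, 9458 and 8705 bp. In that class 5.51% of genes had a log2 fold change at or above that of Aff1, and 19.5% one at or above that of Dot1l. After each library's trend on length was removed, the log2 fold change was 0.42 for Aff1 (SE 0.117, unadjusted p = 0.0116, edgeR quasi-likelihood adjusted p = 0.628) and 0.22 for Dot1l (SE 0.0989, unadjusted p = 0.0654, edgeR quasi-likelihood adjusted p = 0.644). It was 0.07 for Aff4 and 0.05 for Kmt2a, and the median of the 9 was 0.10.

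**Figure D4:**
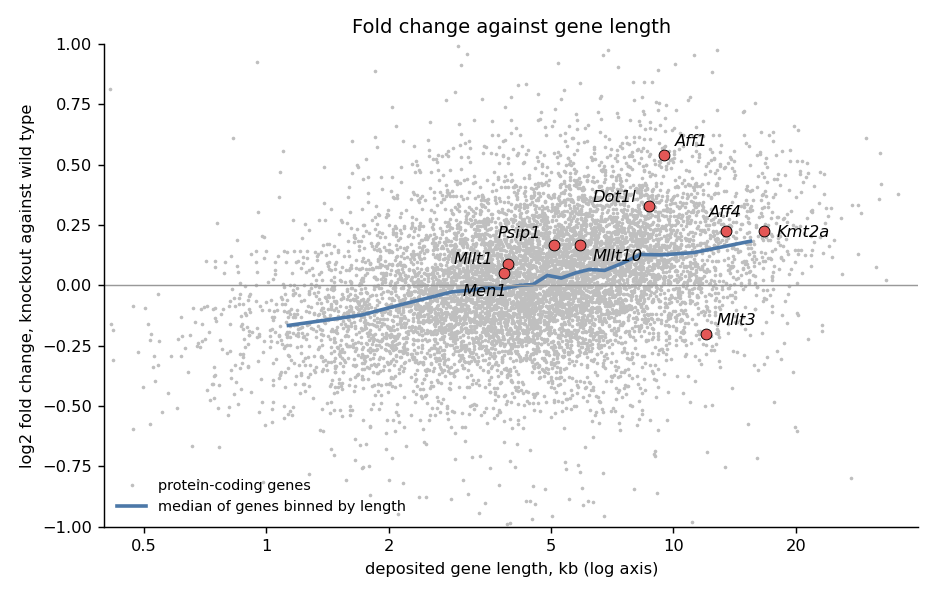
Log2 fold change, Prl2 knockout against wild type, against deposited gene length in kb on a log axis, with grey points for protein-coding genes averaging a log2 CPM of at least 3, a blue line for their median in 20 bins of length and red points for the 9 genes. The line rises with length. Aff1 lies above it, Kmt2a and Aff4 lie close to it and Mllt3 lies below it.

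The promoters of Aff1 and Dot1l, the genes with the largest fold changes, are shown with capitals at matches to any of 5 motifs searched on both strands. The windows run from 250 bases before to 50 bases after a RefSeq start in GRCm38.p6. The Aff1 window is chr5:103753912-103754211 on the plus strand, 1 of 2 windows of that gene, and the Dot1l window is chr10:80754953-80755252 on the plus strand.
Aff1: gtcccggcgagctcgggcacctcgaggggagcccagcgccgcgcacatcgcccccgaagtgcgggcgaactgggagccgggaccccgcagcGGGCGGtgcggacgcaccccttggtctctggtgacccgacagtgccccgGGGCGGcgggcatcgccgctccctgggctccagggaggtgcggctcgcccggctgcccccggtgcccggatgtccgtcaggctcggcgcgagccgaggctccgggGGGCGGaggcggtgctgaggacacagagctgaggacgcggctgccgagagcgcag
Dot1l: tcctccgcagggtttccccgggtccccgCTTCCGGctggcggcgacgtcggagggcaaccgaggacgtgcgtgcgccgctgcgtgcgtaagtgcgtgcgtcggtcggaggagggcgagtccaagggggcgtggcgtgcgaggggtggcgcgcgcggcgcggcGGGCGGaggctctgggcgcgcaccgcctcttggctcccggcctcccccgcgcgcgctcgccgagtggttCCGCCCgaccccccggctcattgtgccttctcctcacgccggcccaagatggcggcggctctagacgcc

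The Aff1 window had 3 matches to the GC box GGGCGG, which 35.7% of all 32851 windows hold, and none to the other motifs. The Dot1l window had 2 GC boxes and 1 match to the ETS motif CCGGAAG, which 8.9% of all windows hold. Neither held the NF-Y motif CCAAT, which is in 37.4% of all windows. Neither held the E-box CACGTG, in 7.2%, nor the E2F motif TTTCCCGC, in 1.1%. No matches of different motifs overlapped. The windows were 77.3% and 76.3% G or C, against a median of 52.7% over all windows. The other Aff1 window was at 63.0%. This was not particular to Aff1 and Dot1l, since the windows of Aff4, Mllt1 and Kmt2a were at 79.0%, 77.7% and 75.7%. Those 3 held 0, 7 and 5 GC boxes. The Men1 windows and some of those of Mllt10 and Mllt3 were lower, down to 42.3%. Of the 9 genes, 8 had a window, and Psip1 had none. A match is a description of letters and not evidence of a bound factor.

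Around the complex, the super elongation complex and P-TEFb list had 11 of 13 genes measured, 7 with a positive and 4 with a negative log2 fold change and a median of 0.04. None of the 11 were called by edgeR's quasi-likelihood test, which called 0.00735% of all genes. Cdk9, the kinase of P-TEFb that phosphorylates RNA polymerase II, had 2488 and 2155 counts in the wild type and 1774 and 2022 in the knockout. Its log2 fold change was -0.32 (SE 0.126, unadjusted p = 0.0463, edgeR quasi-likelihood adjusted p = 0.501), opposite in sign to Aff1 and Aff4.

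The next list held the other KMT2 methyltransferases, the core subunits they share and further subunits of particular complexes. All 16 were measured, 14 with a positive log2 fold change, where 49.1% of all genes had one, and 2 with a negative one. Their median was 0.17. None of the 16 were called, where 0.00735% of all genes were. At an unadjusted p under 0.05, 5 of 16 were higher, where 5.66% of all genes were. None of these 5 is a shared core subunit. Ncoa6, a coactivator in the KMT2C and KMT2D complexes, averaged 92.1 ± 12.7 CPM in wild type and 135.6 ± 1.47 CPM in knockout libraries (SD, n = 2 each), with a log2 fold change of 0.56 (SE 0.127, unadjusted p = 0.00516, edgeR quasi-likelihood adjusted p = 0.474). Hcfc1, a chromatin adaptor of MLL and SET1 complexes, was at 341 ± 14.7 CPM and 452 ± 33.7 CPM, a log2 fold change of 0.41 (SE 0.112). Kmt2d had 0.10 (SE 0.132). The median length of these 16 genes was 8372 bp, and the median log2 fold change was 0.05 with the length trend removed.

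The list of DOT1L and AF9 or ENL partners had 4 of 8 genes positive and 4 negative. Their median was -0.017, or -0.046 with the length trend removed, and 0 were called, where 0.00735% of all genes were. Npm1, a nucleolar chaperone mutated in human acute leukemia, had -0.22 (SE 0.143), and Bcor, a corepressor that binds AF9, had 0.06 (SE 0.205). Bcor counts were 3647 and 5359 in the knockout, so Prl2 knockout replicate 2 was the high library there too. Bcorl1, the relative of Bcor, had 428 and 438 counts in the wild type and 543 and 565 in the knockout, or 0.33 on the log2 scale (SE 0.129, unadjusted p = 0.0471, edgeR quasi-likelihood adjusted p = 0.502).

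The PAF1 complex and the enzymes that ubiquitinate histone H2B, a mark that stimulates DOT1L, had 6 of 10 genes positive and 4 negative, with a median of 0.03 that turned to -0.039 with the length trend removed. Their log2 fold changes spanned -0.15 to 0.19, the narrowest range of the lists on the pathway, and none were called or had an unadjusted p under 0.05. Of all genes, 0.00735% were called, and 5.66% were higher and 4.23% lower at that unadjusted p. Rnf20 and Rnf40, the subunits of the ubiquitin ligase, had 0.18 (SE 0.101) and -0.07 (SE 0.106). The list around LEDGF and menin held partners, relatives of LEDGF and subunits of histone acetyltransferase complexes. It had 9 of 11 genes positive, where 49.1% of all genes were. The median of this list was 0.16 and 0 were called, against 0.00735% of all genes. Its log2 fold changes included 0.18 (SE 0.105) for the acetyltransferase Kat7 and 0.18 (SE 0.0963) for Brpf1, a scaffold of acetyltransferase complexes. Hdgf, a relative of LEDGF, had -0.13 (SE 0.111).

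Known targets of MLL fusions had 10 of 16 measured genes negative, where 50.9% of all genes were, and 6 positive. Their median was -0.15, and -0.26 with the length trend removed. None were called by any of the 4 tests (edgeR quasi-likelihood or likelihood ratio, limma-voom, DESeq2), and 0 had an unadjusted p under 0.05. In that order, the tests called 0.00735%, 0.477%, 0.00735% and 0.676% of all genes. At that unadjusted p, 5.66% of all genes were higher and 4.23% lower. Hoxa9, the homeobox gene most closely tied to MLL leukemia, had 6225 and 4105 counts in the wild type and 3955 and 3669 in the knockout, or -0.47 on the log2 scale (SE 0.207), and the quasi-likelihood test of edgeR gave an adjusted p of 0.532. Without wild type replicate 1 it was -0.15. Myb had -0.18 (SE 0.139) and Cdk6, a cell cycle kinase, 0.08 (SE 0.208). Mecom, the stem cell factor EVI1, was chosen after its values were seen and had 361 and 628 wild type counts and 95 and 1 knockout counts, with an adjusted p of 0.574 in edgeR's quasi-likelihood test. Both knockout libraries were below both wild type libraries, and they also lay far from each other.

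**Figure D5:**
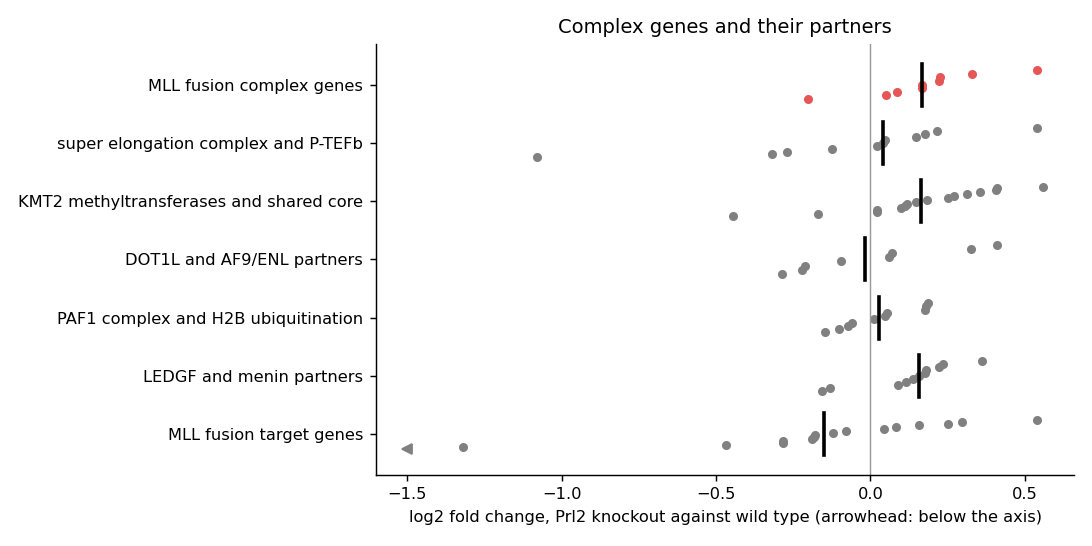
Log2 fold change, Prl2 knockout against wild type, of the 9 genes (red) and of the genes in 6 lists of partners and targets (grey), with a black bar at each list's median and an arrowhead for Mecom, whose value lies below the axis. The median is 0.17 for the 9 genes, 0.17 for the KMT2 list and -0.15 for the target genes.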

How the data were processed

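The authors deposited whole-number read counts per gene for 4 libraries, per the file headers, and the same deposited table holds each gene's length in bp, its log2 fold change and its raw and adjusted p-value. The tools featureCounts, STAR and Bowtie2 and the build mm10 are named per the submitters' processing notes. Tool versions and the strand setting of counting remain unknown, being not given in the sources used here. The smallest gene total in the table is 23 counts. Positions are those of the deposited table.

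Counts were tested with edgeR 4.0.16 (quasi-likelihood, robust) in R 4.3.3, with TMM factors, filterByExpr (all 13614 genes kept), genotype as the single term and two-sided p-values adjusted by Benjamini-Hochberg over all genes. The script was tested on simulated data. DESeq2 1.42.0, limma-voom (limma 3.58.1), likelihood ratio tests, other scalings and filters, a replicate block, removal of each library's lowess trend on gene length and leaving out each library were alternatives. Exact permutation of 2 against 2 libraries cannot give a p below 0.333, so none was used.

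The 9 genes and all lists were chosen with earlier results of these data known. The text names the 9 genes, Ptp4a2 and, from each pathway list without calls, the 2 most abundant genes and the one with the smallest p, and the 3 genes nearest to Kmt2a and to Mllt3. A gene that this rule names is not reported here. Kmt2b, Kmt2c and Mecom were added after their values were seen, and so were the single genes named from the cell type marker lists. Depth limits precision for genes of few counts.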

Additional observations from a re-analysis of the deposited data

How the results depend on the processing

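Over the 11 settings that kept all 4 libraries, all 99 log2 fold changes of the 9 genes kept their direction. These settings are not separate checks, since without a filter or without robust estimation the values were those of the main fit. The likelihood ratio test gave nearly the same values. Directions of some of the genes did turn when a library was left out, as given below. DESeq2 called 1 of the 9, Aff1, and 92 genes over all genes tested, and the likelihood ratio test called 65 genes and none of the 9, against 1 gene in the quasi-likelihood test. The median of the 9 moved from 0.17 to 0.10 when the length trend was removed, and Kmt2d (-0.11), Bcor (-0.039) and Cdk6 (-0.088) then turned negative.

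Leaving out each library gave 0 to 8 calls over all genes (0 without either knockout library), 0 calls among the 9 and a median of the 9 from 0.10 to 0.34. The range was -0.22 to 0.56 for Kmt2a, -0.99 to 0.39 for Mllt3, -0.16 to 0.44 for Mllt10, -0.044 to 0.14 for Men1, -0.061 to 0.24 for Kmt2d, -0.24 to 0.35 for Cdk6 and -0.25 to 0.32 for Bcor. In these fits a lone library is assumed to vary like the other group. Ptp4a2 lost its call without Prl2 knockout replicate 1 (log2 fold change -5.61, adjusted p = 0.111) and without Prl2 knockout replicate 2 (-5.85, adjusted p = 0.0856), against -5.72 with all libraries. The cause of these changes was not tested.

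Replicate numbers are shared between the genotypes, but no source ties them to litters or days. Deviations of same-numbered libraries correlated at -0.14 over 9397 genes. The fit with the replicate block called 1 gene, and that with the numbers crossed, chosen after seeing the data, also called 1.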
